A study of Mus musculus with 14 samples.

Results

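The genes described here encode the nuclear subunits of respiratory chain complexes I to IV, with their tissue isoforms and close relatives by name. They were taken by symbol from the platform annotation: names beginning with Ndufa, Ndufb, Ndufc, Ndufs or Ndufv and a digit, Sdha to Sdhd, names beginning with Uqcr, names beginning with Cox4 to Cox8, and Cyc1. Where a gene had several probe sets, the brightest by mean log2 intensity over all 14 arrays was read, and probe sets naming several genes were left out. The rule gave 65 genes of the 18194 with a probe set of their own. The rule used no measured difference between groups. By role they comprised 6 core and 27 accessory subunits of complex I, 4 subunits of complex II, 9 of complex III, 10 of complex IV, and 9 tissue isoforms or relatives.

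The respiratory chain sits in the inner mitochondrial membrane. Complex I takes electrons from NADH and complex II takes them from succinate. Both pass them to ubiquinone, complex III hands them on through cytochrome c, and complex IV reduces oxygen. Complexes I, III and IV pump protons as they do so, and ATP synthase uses the gradient. Blood stem cells are known for leaning on glycolysis, and their myeloid progeny for a more active respiration. The subunits described here are encoded in the nucleus and imported, whereas a few hydrophobic core subunits of complexes I, III and IV come from mitochondrial DNA.

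RNA was compared between Tet2+/+ mice carrying Mx (WT) and Tet2-/- littermates carrying Mx (KO), with the deletion brought about by pIC injection, on a B6/129 background. Tet2 oxidises methylated cytosine in DNA, and the Mx promoter, induced by pIC, drives recombination in blood cells and in other tissues. From both genotypes came LSK cells (lineage-negative, c-Kit- and Sca1-positive, a population that includes the stem cells), common myeloid progenitors (CMP) and granulocyte-macrophage progenitors (GMP). LSK and CMP were sorted 4 weeks after the deletion, per the labels. The labels give no time for GMP, and no age for the mice. A further KO group was grown from CD150-positive LSK cells through 5 platings in culture, and no WT counterpart of it was analysed here. The 7 groups comprised 2 arrays each, named below as replicate 1 and replicate 2.

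Values are RMA intensities on a linear scale, and differences were tested on log2 with limma across all 18194 genes, where an adjusted p below 0.05 counted as passing. The array medians lay between 31.2 and 33.0, and the arrays of each group correlated at a Pearson r between 0.972 and 0.995. The highest of 27 bacterial control probe sets, taken as the floor of an array, lay between 20.8 and 27.8. The LSK markers summed to 9080 to 11615 in LSK arrays and to 731 to 1384 in GMP arrays. The GMP markers summed to 48539 to 51597 in GMP arrays, to 30312 to 33385 in CMP arrays and to 16402 to 19147 in LSK arrays. Neutrophil markers were not lower in LSK arrays, at 13512 to 20687 in sum, than in GMP arrays, at 12119 to 14955, though the ranges overlapped. In the replated arrays the GMP markers summed to 5389 to 5576, with 2 of 6 above the floor, Fcgr3, which made up nearly all of the sum, and Cebpa. There the mast cell and basophil markers summed to 63095 to 65087, all 9 measured being above the floor, against 515 to 4949 in the sorted arrays. Within that list Mcpt8 read 496 and 485 in the replated arrays, lower than the 857 and 1022 of KO GMP. Hdc was lower as well, at 967 and 855 against 1438 and 1549. The 2 Tet2 probe sets, at 17.0 to 796 and at 454 to 2376, did not separate the genotypes. The first was highest in the replated KO arrays, at 780 and 796, against 17.0 to 209 in the sorted arrays. Without the place of the probe sets relative to the deleted exons, they are no check of the labels. Xist was at 4980 to 6634 in KO sorted arrays and at 18.4 to 29.7 in all others, and Eif2s3y was at 6.47 to 12.5 in KO sorted arrays and at 772 to 2083 in all others, so genotype and a sex-linked difference cannot be told apart in sorted cells. The replated KO arrays read 18.4 and 21.9 for Xist and 2056 and 2083 for Eif2s3y, on the side of the WT arrays, so replating and a sex-linked difference cannot be told apart against the sorted KO groups either.

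Promoter windows were compared with the groups' behaviour because many nuclear genes of the chain are known targets of NRF1, GABP and YY1. RefSeq windows on build GRCm38.p6, each of 300 bases that reach from upstream of the gene's start to just inside it, matched 51 of the 65 genes. A gene counted where any of its windows held the letters, whereas the shares of all windows below count single windows. The shares therefore differ in unit, and the difference between them was not tested. The NRF1 letters, GCGCA and GCGC with any 1 base between them, stood on either strand in 9 of the 51 (17.6%), against 4.6% of all 32851 windows. The GABP letters CCGGAAG stood in 11 (21.6%, against 8.86%), and the YY1 letters AAGATGGCG in 4 (7.84%, against 1.4%). In all, 22 of the 51 held at least 1 of the letter strings. Among the 30 genes with a window that fell from KO GMP to replated cells the counts were 5, 8 and 3 in the same order. Among the other 21 genes they were 4, 3 and 1. The 4 windows below belong to Uqcrc1, Uqcr11 and Ndufv1, each with a large fall in replated cells, and to Cox7a2l, which did not pass there. The capitals mark matches to these letters on either strand, and windows without capitals hold none. The Uqcrc1 window is chr9:108936398-108936697 on the plus strand and carries 2 NRF1 matches, which begin 6 and 31 bases after the start site.
Uqcrc1: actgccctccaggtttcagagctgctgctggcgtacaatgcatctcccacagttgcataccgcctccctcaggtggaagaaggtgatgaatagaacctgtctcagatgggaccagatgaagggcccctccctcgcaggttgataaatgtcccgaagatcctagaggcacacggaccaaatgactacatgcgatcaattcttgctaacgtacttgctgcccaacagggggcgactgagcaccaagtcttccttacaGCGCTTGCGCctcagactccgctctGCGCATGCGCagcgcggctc
The Uqcr11 window is chr10:80406772-80407071 on the minus strand and carries 1 GABP match, 66 bases before the start site.
Uqcr11: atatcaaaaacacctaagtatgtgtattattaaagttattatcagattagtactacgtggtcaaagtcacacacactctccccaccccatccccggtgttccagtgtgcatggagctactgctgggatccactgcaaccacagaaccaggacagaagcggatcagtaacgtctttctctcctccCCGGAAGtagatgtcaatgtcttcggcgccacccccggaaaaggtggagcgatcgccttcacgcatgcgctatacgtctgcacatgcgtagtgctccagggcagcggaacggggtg
The Ndufv1 window is chr19:4012706-4013005 on the minus strand.
Ndufv1: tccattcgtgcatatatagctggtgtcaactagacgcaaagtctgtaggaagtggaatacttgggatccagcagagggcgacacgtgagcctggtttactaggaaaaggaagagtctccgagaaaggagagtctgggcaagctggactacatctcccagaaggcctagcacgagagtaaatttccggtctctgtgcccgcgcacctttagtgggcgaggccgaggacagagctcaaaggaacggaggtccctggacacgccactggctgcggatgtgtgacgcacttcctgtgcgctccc
The Cox7a2l window is chr17:83514284-83514583 on the minus strand.
Cox7a2l: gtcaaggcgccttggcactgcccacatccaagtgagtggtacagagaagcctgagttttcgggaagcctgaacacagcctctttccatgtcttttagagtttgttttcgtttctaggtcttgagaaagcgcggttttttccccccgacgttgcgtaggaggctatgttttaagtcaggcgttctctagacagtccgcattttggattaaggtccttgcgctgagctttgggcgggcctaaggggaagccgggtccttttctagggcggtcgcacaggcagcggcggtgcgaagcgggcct
A match is a description of these letters and shows no binding.

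Across the 14 arrays the chain moved mostly as a block, highest in GMP and lowest in the replated cells. For each array, the median over the 65 genes of the log2 intensity minus the mean of the gene over all arrays gives the level of the block. In LSK it was -0.21 and 0.10 for WT, and 0.03 and -0.30 for KO. In CMP it was 0.07 and 0.05 for WT, and 0.11 and 0.13 for KO. It reached 0.26 and 0.34 in WT GMP and 0.18 and 0.27 in KO GMP, and was -0.41 and -0.57 in replated KO cells. The same median over all genes stayed between -0.07 and 0.06. The GMP arrays therefore lay above every LSK and CMP array, and the replated arrays below every sorted array. Replicate 1 of WT LSK and replicate 2 of KO LSK lay low, so the counts, medians and named values of passing subunits that use LSK are also given from a fit without both, a fit chosen after seeing the data.

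**Figure D1:**
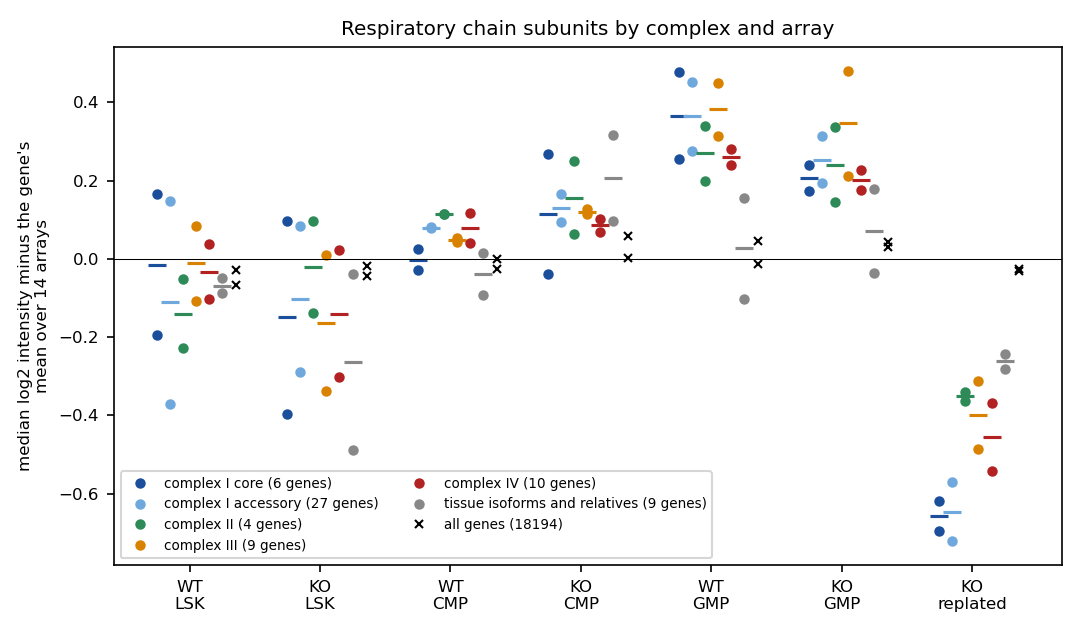
Points show, for each array (x axis, by group), the median over a class of genes of the log2 intensity minus the gene's mean over 14 arrays (y axis, log2); bars are group means and crosses are all 18194 genes. The group means of complexes I to IV are highest in GMP and lowest in the replated KO cells, where the isoforms and relatives lie nearest to 0, while the crosses stay between -0.07 and 0.06.

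In the sorted cells, deletion of Tet2 went with no subunit past the threshold. Averaged over LSK, CMP and GMP, 0 of 65 genes passed in limma, where 0.308% of all genes did, and 1 had an unadjusted p below 0.05 (9.11% of all genes). Within LSK 0 passed (0.264% of all genes), within CMP 0 (0.121%) and within GMP 0 (0.0934%), and 4, 0 and 1 subunits reached an unadjusted p below 0.05 (9.91%, 6.13% and 4.43% of all genes). The median KO minus WT difference of the block was -0.02 on the log2 scale in the average, -0.04 in LSK, 0.07 in CMP and -0.07 in GMP, against 0.03, 0.01, 0.04 and 0.02 for all genes. In LSK the median went to -0.23 without replicate 1 of WT LSK and to 0.12 without replicate 2 of KO LSK, and was -0.04 without both. The median standard error (SE) of a subunit was 0.12 in the average and 0.21 within a population. A test of whether the genotype difference varied between the populations called 0 subunits (0.0055% of all genes), with Ndufs7 at the lowest adjusted p of 0.906 and 0 subunits at an unadjusted p below 0.05.

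The subunit with the smallest p was Ndufs1, the largest subunit of complex I, which carries iron-sulfur clusters in the arm that oxidises NADH. Ndufs1 read 753 and 746 in WT LSK, 510 and 534 in KO LSK, 799 and 852 in WT CMP, 772 and 531 in KO CMP, 1012 and 927 in WT GMP, 894 and 814 in KO GMP, and 893 and 818 in replated cells. Both KO arrays lay below both WT arrays in each population. Ndufs1 was the only subunit of the 65 with that pattern, which 0.918% of all genes had, and 0 subunits had the opposite pattern (1.29% of all genes). The averaged difference was -0.36 ± 0.10 (SE) on the log2 scale, from a mean of 843 to one of 658, and did not pass (limma, adjusted p = 0.288). The difference was -0.52 ± 0.17 in LSK and -0.37 ± 0.17 in CMP, at adjusted p of 0.337 and 0.831. Without both low LSK arrays it was -0.37 in the average and -0.55 in LSK.

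Other subunits with small p in the average were Ndufa6, an accessory subunit of complex I, at 0.21 ± 0.10, and Sdhc, a membrane anchor of complex II, at 0.30 ± 0.15. Cox7b2 also had a small p but lay at or below the floor on all arrays. In LSK, Cox6a2, the muscle isoform of a complex IV subunit, read 260 and 116 in WT and 79.9 and 80.8 in KO, a difference of -1.11 ± 0.39 that did not pass (adjusted p = 0.360). Ndufa6 differed by 0.44 ± 0.17 there, and Ndufs5 by -0.43 ± 0.19. Without both low LSK arrays, Cox6a2, Ndufa6 and Ndufs5 differed there by -0.53, 0.18 and -0.59, and 0 of them passed. In CMP the iron-sulfur subunits Ndufs7 and Ndufs8 differed by 0.68 ± 0.32 and 0.61 ± 0.31, and Cox8b by 0.30 ± 0.15. In GMP the values were -0.48 ± 0.29 for Ndufa5, -0.25 ± 0.17 for Ndufb3 and 0.29 ± 0.21 for Cox8c, each at an adjusted p of 1 after rounding. The X-linked subunits Ndufa1 and Ndufb11 differed by between -0.08 and 0.08 in the average, in arrays where Xist separates the genotypes. Without replicate 1 of KO LSK, 1 subunit passed in LSK, the iron-sulfur subunit Sdhb of complex II, at -1.13 and adjusted p = 0.0236. Its KO LSK arrays read 1309 and 423, so the call rested on replicate 2 alone. Without that array and replicate 1 of WT LSK, Sdhb differed by 0.38 and 0 subunits passed in LSK (1.91% of all genes).

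**Figure D2:**
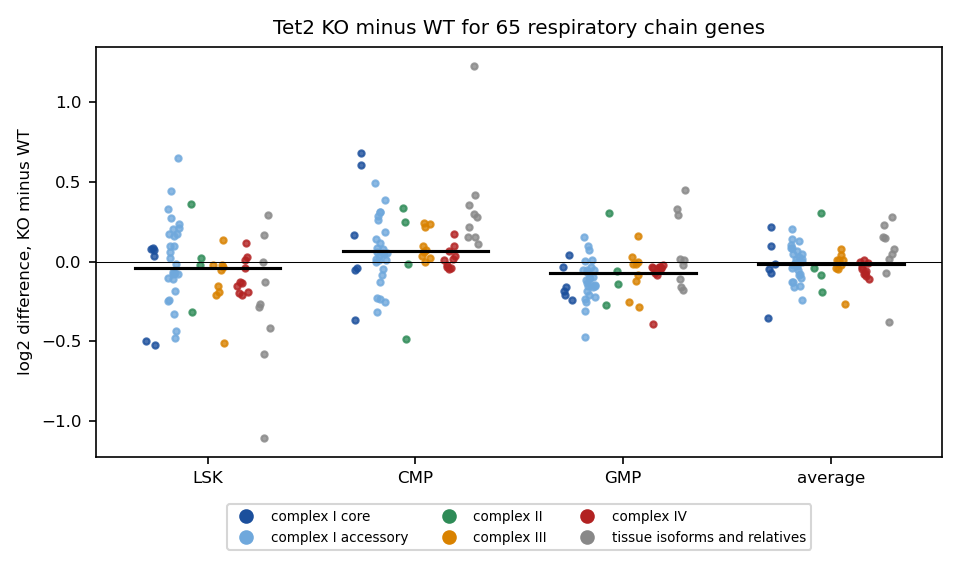
Each point is a subunit, coloured by class, with its log2 difference of Tet2 KO minus WT (y axis) within LSK, CMP and GMP and in their average (x axis); bars are medians. The medians lie at -0.04, 0.07, -0.07 and -0.02, and no point passed the threshold.

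From LSK to GMP the median of the block was higher. Averaged over WT and KO, 18 of 65 subunits rose, where 8% of all genes did, and 0 fell, where 7.17% did. The difference was above 0 for 63 of 65 subunits (60.6% of all genes), with a median of 0.33 on the log2 scale against 0.07 for all genes. Within WT alone it was above 0 for 62 of 65 (median 0.37) and within KO alone for 59 (median 0.35), and 57 were above 0 in both, as were 43% of all genes. All 4 GMP arrays lay above all 4 LSK arrays for 27 subunits (11.3% of all genes) and below them for Cox7a2l alone (7.89%). By role, 2 of 6 core and 8 of 27 accessory subunits of complex I rose, 1 of 4 of complex II, 5 of 9 of complex III, 2 of 10 of complex IV and 0 of 9 isoforms and relatives. The count depended on the LSK arrays: without replicate 1 of WT LSK and replicate 2 of KO LSK together it was 4, namely Ndufb3, Ndufs5, Cyc1 and Uqcrq, where 6.25% of all genes rose and 6.94% fell (13.2% together). In that fit the difference was above 0 for 53 of 65, with a median of 0.18 against 0.06 for all genes. For the single omissions that follow, no share of all genes is given. The count also fell to between 7 and 10 when any 1 of these arrays was left out: replicate 1 of WT LSK, replicate 2 of KO LSK, or either array of WT GMP, KO GMP or the replated cells.

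The rise was largest for Ndufs5 and Ndufb3, accessory subunits in the membrane arm of complex I. The intensities of Ndufs5 were 1074 and 1390 (WT LSK), 923 and 886 (KO LSK), 1377 and 1390 (WT CMP), 1395 and 1965 (KO CMP), 2241 and 2327 (WT GMP), 2133 and 1825 (KO GMP) and 784 and 827 (replated). In WT, Ndufb3 stood at 1038 and 1279 in LSK, 1527 and 1422 in CMP and 2577 and 2293 in GMP, and in KO at 1254 and 951, 1447 and 1404 and 1969 and 2115, with 1028 and 972 in replated cells. The GMP arrays of both genes lay above all LSK arrays. Ndufs5 rose 2.02-fold, from a mean of 1051 in LSK to 2122 in GMP (1.01 ± 0.13 on the log2 scale, limma adjusted p = 0.00101). Ndufb3 rose 1.99-fold, from 1122 to 2227 (0.99 ± 0.12, adjusted p = 0.000582). Both passed in all 14 fits that left out a single array, and without both low LSK arrays at 0.91 (adjusted p = 0.00949) and 0.81 (adjusted p = 0.00323).

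In complex III the heme-carrying subunit Cyc1, cytochrome c1, rose with small error. Cyc1 read 1039 and 1187 in WT LSK, 1103 and 908 in KO LSK, 1214 and 1163 in WT CMP, 1220 and 1190 in KO CMP, 1485 and 1617 in WT GMP, 1744 and 1716 in KO GMP, and 515 and 513 in replated cells. The 4 GMP arrays lay above all 8 LSK and CMP arrays. It rose 1.55-fold, from 1054 to 1637 (0.64 ± 0.09, adjusted p = 0.00205), and it also passed in all 14 single omissions and, at 0.52, without both low LSK arrays (adjusted p = 0.0137). Uqcrq, which helps hold cytochrome b in the complex, read 621 and 874 in WT LSK and 1032 and 633 in KO LSK. It read 1604 and 1694 in WT GMP and 1259 and 1522 in KO GMP, a rise of 0.97 ± 0.19 (adjusted p = 0.00828), and of 0.67 without both low LSK arrays (adjusted p = 0.0382). Its 3 other probe sets lay at or below the floor in these groups, and the probe set read here is of a type that can bind several transcripts.

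Of the other members of complex III, 3 passed, Uqcrc1, Uqcrfs1 and Uqcr11. The intensities of Uqcrc1 were 1604 and 2112 (WT LSK), 2161 and 1169 (KO LSK), 2194 and 1925 (WT CMP), 2363 and 2420 (KO CMP), 2927 and 2733 (WT GMP), 2543 and 2810 (KO GMP) and 696 and 695 (replated). Uqcrc1, a core protein of the complex, rose by 0.69 ± 0.18 (adjusted p = 0.0332), and the low values of replicate 1 of WT LSK and replicate 2 of KO LSK stand out within it. In WT, Uqcrfs1 stood at 1858 and 2377 in LSK, 2371 and 2472 in CMP and 2787 and 2947 in GMP, and in KO at 2193 and 1865, 2308 and 2898 and 2668 and 3017, with 1964 and 1769 in replated cells. Uqcrfs1, the Rieske iron-sulfur protein, rose by 0.47 ± 0.12, and the small subunit Uqcr11 by 0.65 ± 0.17. Uqcrc2 read 3676 and 3810 in WT LSK, 3817 and 3563 in KO LSK, 3884 and 3648 in WT CMP, 4056 and 3655 in KO CMP, 4279 and 4455 in WT GMP, 4120 and 3897 in KO GMP, and 3421 and 3002 in replated cells. Uqcrc2, the other core protein, was higher by 0.17 ± 0.09 and did not pass (adjusted p = 0.235). Uqcrc1 lost its call in 7 of the 14 single omissions, and Uqcr11 in 8. In the fit without both low LSK arrays Uqcrc1 differed by 0.36, Uqcrfs1 by 0.32 and Uqcr11 by 0.46, and none of the 3 passed (adjusted p of 0.072, 0.172 and 0.117).

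Among the core subunits of complex I, Ndufs1 rose by 0.54 ± 0.12 (adjusted p = 0.0174) and Ndufs8 by 0.82 ± 0.22 (adjusted p = 0.0374). Ndufs8 holds iron-sulfur clusters on the way to ubiquinone. The intensities of Ndufs8 were 1141 and 2032 (WT LSK), 1898 and 1350 (KO LSK), 1928 and 1871 (WT CMP), 2461 and 3411 (KO CMP), 2334 and 3318 (WT GMP), 3184 and 2323 (KO GMP) and 969 and 977 (replated). It lost its call in 9 of the 14 single omissions. When both low LSK arrays were left out, Ndufs1 differed by 0.56 and Ndufs8 by 0.49, and neither passed (adjusted p of 0.0656 and 0.192). In WT, Ndufv1 stood at 1291 and 1403 in LSK, 1218 and 1176 in CMP and 1408 and 1554 in GMP, and in KO at 1601 and 1271, 1586 and 1143 and 1462 and 1586, with 475 and 527 in replated cells. Ndufv1, which binds the flavin where NADH is oxidised, differed by 0.12 ± 0.13, and its LSK, CMP and GMP arrays overlapped. Ndufv2 read 2301 and 2752 in WT LSK, 3153 and 2107 in KO LSK, 2605 and 2492 in WT CMP, 2670 and 2295 in KO CMP, 3065 and 3558 in WT GMP, 2751 and 2972 in KO GMP, and 1969 and 1822 in replated cells. The intensities of Ndufs3 were 3504 and 4860 (WT LSK), 4729 and 4010 (KO LSK), 4612 and 4457 (WT CMP), 4686 and 4086 (KO CMP), 4916 and 5761 (WT GMP), 4460 and 5073 (KO GMP) and 2274 and 2210 (replated). Ndufv2, an iron-sulfur partner of Ndufv1, differed by 0.27 ± 0.14, and Ndufs3, of the arm that leads to ubiquinone, by 0.25 ± 0.13; neither passed. In WT, Ndufs7 stood at 1863 and 3351 in LSK, 1710 and 2179 in CMP and 2224 and 3231 in GMP, and in KO at 2224 and 1412, 2973 and 3230 and 1994 and 2579, with 1742 and 1656 in replated cells. Ndufs7, which carries the last iron-sulfur cluster before ubiquinone, differed by 0.23 ± 0.23, with both KO CMP arrays at the level of replicate 2 of WT LSK and WT GMP.

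Of the accessory subunits of complex I, Ndufb6 rose by 0.73 ± 0.19, Ndufa10 by 0.73 ± 0.21, Ndufb8 by 0.60 ± 0.16, Ndufc1 by 0.57 ± 0.14, Ndufb2 by 0.56 ± 0.15 and Ndufb5 by 0.44 ± 0.10. The adjusted p of these lay between 0.018 and 0.0453. Ndufa10, Ndufb6 and Ndufb8 lost their calls in 9 or 10 of the 14 single omissions. The 6 differed without both low LSK arrays by 0.53, 0.41, 0.33, 0.33, 0.39 and 0.33 in the same order, and 0 of them passed. The smallest difference was that of Ndufa6, at 0.00 ± 0.12.

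In complex II only Sdhd, a membrane anchor, rose. Sdhd read 1795 and 1946 in WT LSK, 2003 and 1800 in KO LSK, 2069 and 2219 in WT CMP, 2071 and 2174 in KO CMP, 2615 and 2686 in WT GMP, 2310 and 2510 in KO GMP, and 1584 and 1743 in replated cells. Its GMP arrays lay above all LSK and CMP arrays, at 0.42 ± 0.09 (adjusted p = 0.0113), and at 0.36 without both low LSK arrays, where it did not pass (adjusted p = 0.0684). The intensities of Sdhb were 856 and 1009 (WT LSK), 1309 and 423 (KO LSK), 1217 and 1222 (WT CMP), 1458 and 1622 (KO CMP), 1292 and 1388 (WT GMP), 1116 and 1097 (KO GMP) and 597 and 538 (replated). Sdhb, which carries iron-sulfur clusters, was higher by 0.55 ± 0.28 and did not pass, with replicate 2 of KO LSK far below all other sorted arrays. In WT, Sdhc stood at 742 and 1305 in LSK, 1098 and 1124 in CMP and 1308 and 1212 in GMP, and in KO at 1408 and 1133, 1411 and 1239 and 1359 and 1774, with 940 and 885 in replated cells. Sdhc, the other anchor, differed by 0.33 ± 0.18. Sdha read 2361 and 1534 in WT LSK, 1240 and 2836 in KO LSK, 2485 and 2319 in WT CMP, 2497 and 1181 in KO CMP, 2803 and 2083 in WT GMP, 1924 and 2794 in KO GMP, and 2384 and 2098 in replated cells. Sdha, the flavoprotein, differed by 0.33 ± 0.32, and its arrays spread within most groups. Further probe sets of Sdha differed by 0.13, -0.48 and -0.42 between GMP and LSK, at unadjusted p of 0.219, 0.0534 and 0.388.

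In complex IV, 2 subunits passed. The intensities of Cox5a were 4440 and 5356 (WT LSK), 4697 and 4102 (KO LSK), 6044 and 5507 (WT CMP), 5503 and 5715 (KO CMP), 6436 and 6553 (WT GMP), 6288 and 6521 (KO GMP) and 3761 and 3488 (replated). Cox5a, a matrix-facing subunit, rose by 0.48 ± 0.10 (adjusted p = 0.00992), its GMP arrays above every LSK and CMP array. In WT, Cox5b stood at 5667 and 6810 in LSK, 7747 and 6935 in CMP and 8311 and 8282 in GMP, and in KO at 6924 and 5789, 7380 and 7421 and 7743 and 8402, with 4831 and 4352 in replated cells. Cox5b, a zinc-binding subunit, rose by 0.38 ± 0.10 (adjusted p = 0.036). Leaving out both low LSK arrays, they differed by 0.36 and 0.25, and neither passed (adjusted p of 0.0577 and 0.188). Cox4i1 read 3986 and 4438 in WT LSK, 4461 and 3277 in KO LSK, 4689 and 4453 in WT CMP, 4459 and 4553 in KO CMP, 5084 and 5218 in WT GMP, 4670 and 5151 in KO GMP, and 3455 and 3350 in replated cells. Cox4i1, a regulatory subunit, was higher by 0.33 ± 0.11 and did not pass (adjusted p = 0.0812), though its GMP arrays lay above all LSK arrays. Cox7c lay close to the floor on many arrays and differed by -0.15 ± 0.50 between GMP and LSK.

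**Figure D3:**
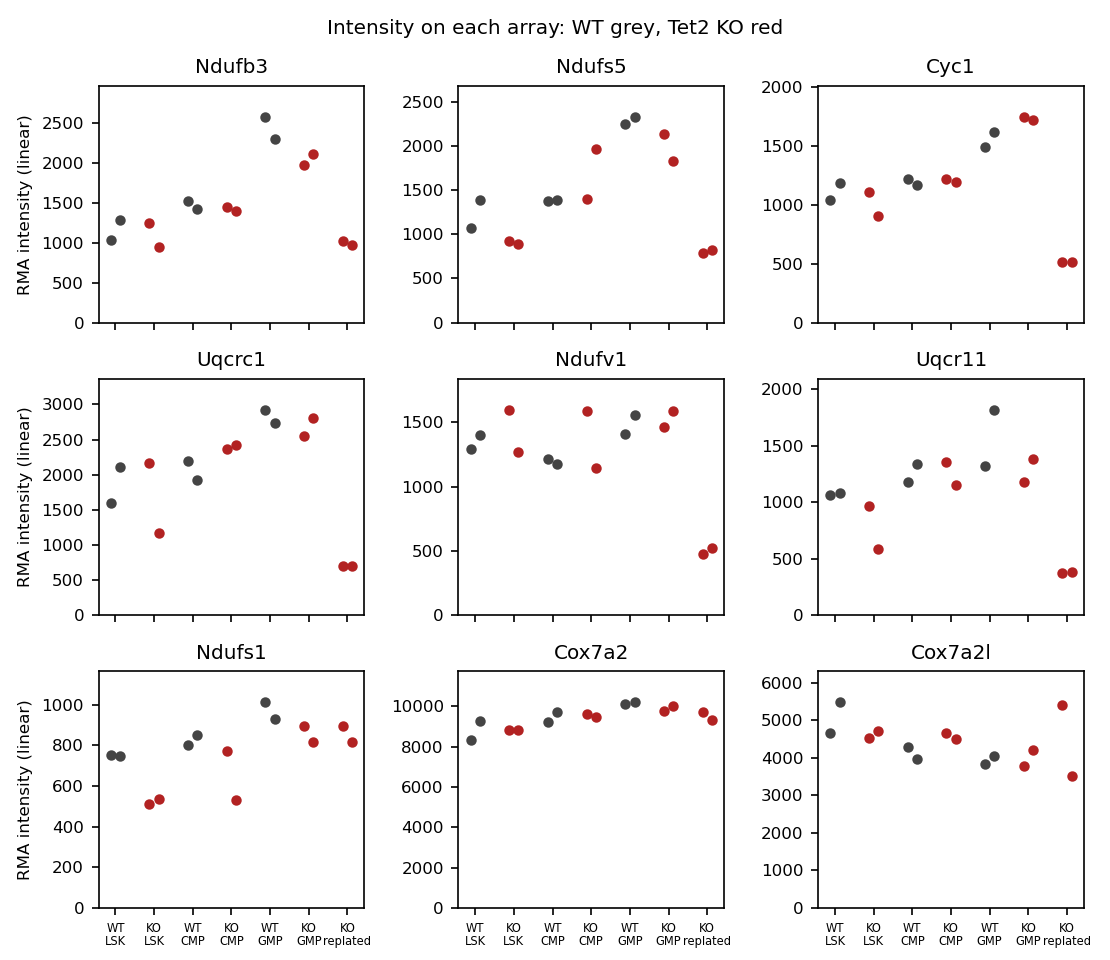
Linear RMA intensity (y axis, from 0) of 9 subunits on each array (x axis, by group; WT grey, KO red). Ndufb3, Ndufs5 and Cyc1 are highest in GMP; Cyc1, Uqcrc1, Ndufv1 and Uqcr11 are lowest in the 2 replated arrays; Ndufs1 is lower in KO than in WT sorted cells; Cox7a2 and Cox7a2l did not pass in replated cells.

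The median difference was above 0 at both steps between LSK and GMP. From LSK to CMP, 0 of 65 subunits passed in limma, where 1.56% of all genes passed upwards and 2.5% downwards (4.06% together), with 13 at an unadjusted p below 0.05 (17.1% of all genes). The difference was above 0 for 59 (59% of all genes), with a median of 0.19 against 0.05 for all genes. Without both low LSK arrays it was above 0 for 38, and the median was 0.05 against 0.04 for all genes. The lowest adjusted p, 0.0644, was that of Ndufs5, at 0.53 ± 0.13. It was followed by Ndufb3 at 0.37 ± 0.12, Cox5a at 0.30 ± 0.10 and Uqcr11 at 0.48 ± 0.17. The differences without both low LSK arrays were 0.42, 0.19, 0.18 and 0.30 in the same order. All 4 CMP arrays lay above all 4 LSK arrays for 6 subunits, Cox5a, Cox5b, Ndufb3, Ndufb5, Sdhd and Uqcr11 (5.03% of all genes). Ndufs5 passed without replicate 2 of WT LSK (with Ndufa1 and Ndufb6) and without replicate 1 of KO CMP. Sdhb, Uqcr11 and Uqcrc1 passed without replicate 1 of KO LSK, and 0 subunits without both low LSK arrays (4.55% of all genes).

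From CMP to GMP, Ndufb3 and Cyc1 rose and 0 fell, so that 2 of 65 passed upwards where 1.26% of all genes did (1.36% downwards and 2.62% together). Ndufb3 rose by 0.62 ± 0.12 (adjusted p = 0.0254) and Cyc1 by 0.45 ± 0.09 (adjusted p = 0.0399). Both calls were lost in 10 of the 14 single omissions, namely without any 1 CMP, GMP or replated array. The difference was above 0 for 59 of 65 subunits (53.8% of all genes), with a median of 0.16 against 0.02 for all genes. All 4 GMP arrays lay above all 4 CMP arrays for 16 subunits (6.22% of all genes), among them Ndufb1, Ndufv2, Uqcr10, Cox6b1 and Cox7a2.

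In the replated KO cells the block was lower than in any sorted KO population. Against KO GMP, 34 of 65 subunits fell, where 15.2% of all genes did, and 0 rose, where 10.2% did. The median difference was -0.76 on the log2 scale, against -0.06 for all genes. By role, 3 of 6 core and 18 of 27 accessory subunits of complex I fell, 1 of 4 of complex II, 5 of 9 of complex III, 6 of 10 of complex IV, and 1 of 9 isoforms and relatives. Against KO CMP, 29 fell (14.1% of all genes) and 0 rose (10.3%), with a median of -0.59 against -0.07. Against KO LSK, 18 fell (14.2%) and 1 rose (10.8%), with a median of -0.28 against 0.01. The cultures began from the CD150-positive cells among LSK, so the KO LSK arrays are not of the same starting cells. In either direction 25.3%, 24.4% and 25.1% of all genes passed in the same order. These comparisons share the replated arrays. Both replated arrays lay below all 6 sorted KO arrays for 38 subunits (21% of all genes), below all 12 sorted arrays for 35 (16.4%), and above either for 0 (16.1% and 12.9%). The sum of the mast cell and basophil markers, 63095 to 65087 in the replated arrays, moved with this difference, though Mcpt8 and Hdc were lower than in KO GMP. So did 5 of the 6 GMP markers. Mpo, Elane, Ctsg and Prtn3 were at 10.5 to 19.9, below the floor, and Cebpa at 62.7 and 75.8, against 6883 and 7367 in KO GMP. The part of these markers in the difference was not tested. The remaining GMP marker, Fcgr3, was higher, at 5454 and 5258 against 3382 and 4016. Xist and Eif2s3y separate the replated from the sorted KO arrays, so a sex-linked difference cannot be told apart from this one. In bulk samples, fewer cells of a type and less RNA per cell cannot be told apart.

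Against KO CMP the largest falls were those of Cox6b2 at -2.01 ± 0.45, Uqcrc1 at -1.78 ± 0.26, Uqcr11 at -1.73 ± 0.24, and the complex I subunits Ndufs8 and Ndufa7, both at -1.57 ± 0.31. They were followed by Sdhb, Ndufv1 and Uqcrq, and by Ndufb1 at -1.27 ± 0.16 and Ndufb2 at -1.26 ± 0.22. The call of Cox6b2 was lost without replicate 2 of KO CMP or replicate 1 of the replated cells. Against KO LSK the largest falls were those of Ndufv1 at -1.51 ± 0.18, Cox6b2 at -1.48 ± 0.45, Ndufb9 at -1.36 ± 0.29, Uqcrc1 at -1.19 ± 0.26 and Ndufa6 at -1.02 ± 0.17. Ndufb1 fell 2.01-fold and Ndufb2 1.99-fold, Uqcr11 and Ndufc1 by 0.99 ± 0.24 and 0.99 ± 0.20, and Ndufa12 by 0.96 ± 0.15.

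The count against KO LSK varied with single arrays, and for single omissions no share of all genes is given. In either direction it was 11 without replicate 1 of KO LSK and 10 without replicate 2 of the replated cells, and 22 and 25 without replicate 1 of WT LSK or replicate 2 of KO LSK. Without both low LSK arrays 29 fell (15.6% of all genes) and 0 rose (10.8%), with a median of -0.47 against -0.01 for all genes. In that fit Cox6b2 fell by 2.23, Ndufv1 by 1.68, Uqcrc1 by 1.64, Uqcr11 by 1.35, Ndufb2 by 1.24, Ndufc1 by 1.18, Ndufb9 by 1.11, Ndufb1 by 1.06, Ndufa12 by 1.05 and Ndufa6 by 0.96. Against KO CMP it was 17 without replicate 2 of the replated cells.

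The largest falls among the core of complex I were those of Ndufv1, Ndufs8 and Ndufs3. Ndufv1 read 475 and 527 in the replated arrays, and no sorted array read below 1143. It fell 3.05-fold from a mean of 1523 in KO GMP to 500 (-1.61 ± 0.18 on the log2 scale, limma adjusted p = 0.000162), and fell also against KO CMP (-1.43 ± 0.18) and KO LSK (-1.51 ± 0.18). Its 2 other probe sets differed by -1.74 and -1.63 between replated cells and KO GMP. Ndufs8 fell by 1.48 ± 0.31 (adjusted p = 0.00676), a call lost without replicate 1 of KO GMP, and Ndufs3 fell by 1.09 ± 0.18. Ndufv2 differed by -0.59 ± 0.20 and Ndufs7 by -0.42 ± 0.32, and neither passed.

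Ndufs1 went apart from the other core subunits. It read 893 and 818 in the replated arrays, against 894 and 814 in KO GMP, a difference of 0.00 ± 0.17 (95% interval -0.39 to 0.39). Against KO LSK it rose by 0.71 ± 0.17 (adjusted p = 0.014), the only subunit to rise, and the call was lost without replicate 1 of KO LSK or replicate 1 of the replated cells. Without both low LSK arrays it differed by 0.75 and did not pass (adjusted p = 0.0503).

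Among the accessory subunits, Ndufb2 fell by 1.68 ± 0.22 against KO GMP, Ndufc1 by 1.40 ± 0.20, Ndufb1 by 1.37 ± 0.16, Ndufs5 by 1.29 ± 0.19 and Ndufb3 by 1.03 ± 0.17. Ndufb1 read 48.7 and 39.8 in the replated arrays and 84.7 to 146 in the sorted arrays, all above the floor. Ndufb3 and Ndufs5, which rose most from LSK to GMP, read 1028 and 972, and 784 and 827, in the replated arrays. For Ndufs5 these were the lowest values of the 14 arrays, while Ndufb3 lay within the range of LSK. Ndufs4, needed for a stable complex I and mutated in Leigh syndrome, fell by 1.13 ± 0.18, with 963 and 929 against 1945 and 2209. Ndufa12 fell by 1.13 ± 0.15. Ndufb11, Ndufa2 and Ndufa13 differed by -0.11 ± 0.13, -0.23 ± 0.22 and -0.33 ± 0.28 and did not pass. A second probe set of Ndufb2 differed by -1.86, and another by 1.02 at an unadjusted p of 0.0399. Further probe sets of Ndufa12 differed by -0.63, -0.91 and 0.95, the last at an unadjusted p of 0.343.

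Outside the isoforms, the 3 largest falls against KO GMP were in complex III. Uqcrc1 read 696 and 695 in the replated arrays, against 2543 and 2810 in KO GMP, 2363 and 2420 in KO CMP, and 2161 and 1169 in KO LSK. It fell 3.84-fold against KO GMP (-1.94 ± 0.26, adjusted p = 0.000437), 3.44-fold against KO CMP and 2.29-fold against KO LSK. Cyc1 read 515 and 513, and fell 3.36-fold against KO GMP (-1.75 ± 0.13, adjusted p = 1.27e-05), the smallest p of the 65. Uqcr11 read 371 and 383 against 1176 and 1384, a fall of 3.38-fold (-1.76 ± 0.24, adjusted p = 0.000553). The replated arrays of all 3 genes lay below all 12 sorted arrays. Uqcrfs1 fell by 0.61 ± 0.17 (adjusted p = 0.029). Uqcrc2 differed by -0.32 ± 0.12, Uqcrh, the acidic hinge protein, by -0.41 ± 0.15 and Uqcrb by -0.28 ± 0.15, and these did not pass. Uqcrq fell by 1.62 ± 0.27 on its chosen probe set, the other 3 being at or below the floor in both groups.

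In complex II the change was smaller in its passing member. Sdhd fell by 0.54 ± 0.12 (adjusted p = 0.0106), with 1584 and 1743 in the replated arrays against 2310 and 2510 in KO GMP. Sdhb differed by -0.96 ± 0.40 and Sdhc by -0.77 ± 0.25, without passing. Against KO CMP, Sdhb fell by 1.44 ± 0.40 (adjusted p = 0.0274), a call lost without either KO CMP or either replated array. Sdha differed by -0.05 ± 0.45 on its chosen probe set, and 2 further probe sets by -0.54 (unadjusted p = 0.00415) and -0.56 (unadjusted p = 0.42).

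In complex IV, Cox8a fell by 1.08 ± 0.23, Ndufa4 by 0.95 ± 0.13, Cox5a by 0.82 ± 0.14, Cox5b by 0.81 ± 0.15, Cox6b1 by 0.68 ± 0.12 and Cox4i1 by 0.53 ± 0.16. Ndufa4, named for complex I but a subunit of complex IV, read 2364 and 2198 against 4337 and 4456. Cox7a2 read 9740 and 9302 against 9789 and 10030, a difference of -0.06 ± 0.11. Cox6a1 differed by -0.26 ± 0.12 and Cox6c by -0.62 ± 0.28, neither passing. Cox7c read 30.1 and 38.1 in the replated arrays and 15.8 and 12.8 in KO GMP, the latter below the floor.

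The isoforms and relatives behaved less uniformly. Cox6b2, known as the testis isoform of Cox6b1, read 256 and 276 in the replated arrays, against 1602 and 874 in KO GMP and 438 to 1249 in the other sorted arrays. It fell 4.46-fold against KO GMP (-2.16 ± 0.45, adjusted p = 0.00606), a call lost without replicate 1 of KO GMP. Against KO LSK the fall of 1.48 ± 0.45 was lost in 7 of the 14 single omissions. The intensities of Cox7a2l were 4665 and 5488 (WT LSK), 4540 and 4730 (KO LSK), 4301 and 3983 (WT CMP), 4679 and 4518 (KO CMP), 3842 and 4053 (WT GMP), 3784 and 4225 (KO GMP) and 5419 and 3529 (replated). Cox7a2l, which joins complexes III and IV into supercomplexes, was the only subunit with all GMP arrays below all LSK arrays (-0.29 ± 0.14, adjusted p = 0.203). In replated cells it differed from KO GMP by 0.13 ± 0.19, its replicates lying on either side of the KO GMP arrays. Cox6a2, at 69.6 and 67.0, differed from KO GMP by -0.95 ± 0.39 and did not pass. In WT, Cox4i2 stood at 47.6 and 44.3 in LSK, 42.3 and 43.7 in CMP and 57.5 and 48.5 in GMP, and in KO at 42.4 and 28.0, 66.9 and 45.1 and 39.9 and 55.9, with 30.2 and 33.9 in replated cells. Cox4i2 is the isoform known from lung, and its replated arrays lay below 11 of the 12 sorted arrays. Ndufa4l2 read 41.2 to 84.1 over the 14 arrays and Cox8c 23.8 to 48.5. Ndufa4l2 is known as a hypoxia-induced relative of Ndufa4 and Cox8c as a testis isoform, and neither passed in any of the comparisons. The muscle isoforms Cox8b and Cox7a1 read 21.5 to 32.8 and 7.93 to 62.3, across the range of the floor. Cox7b2 (4.66 to 6.78) and Ndufb4 (5.78 to 11.9) lay at or below the floor on all arrays, so no fold is given for them, and the other 63 genes were above it on at least 1 array.

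**Figure D4:**
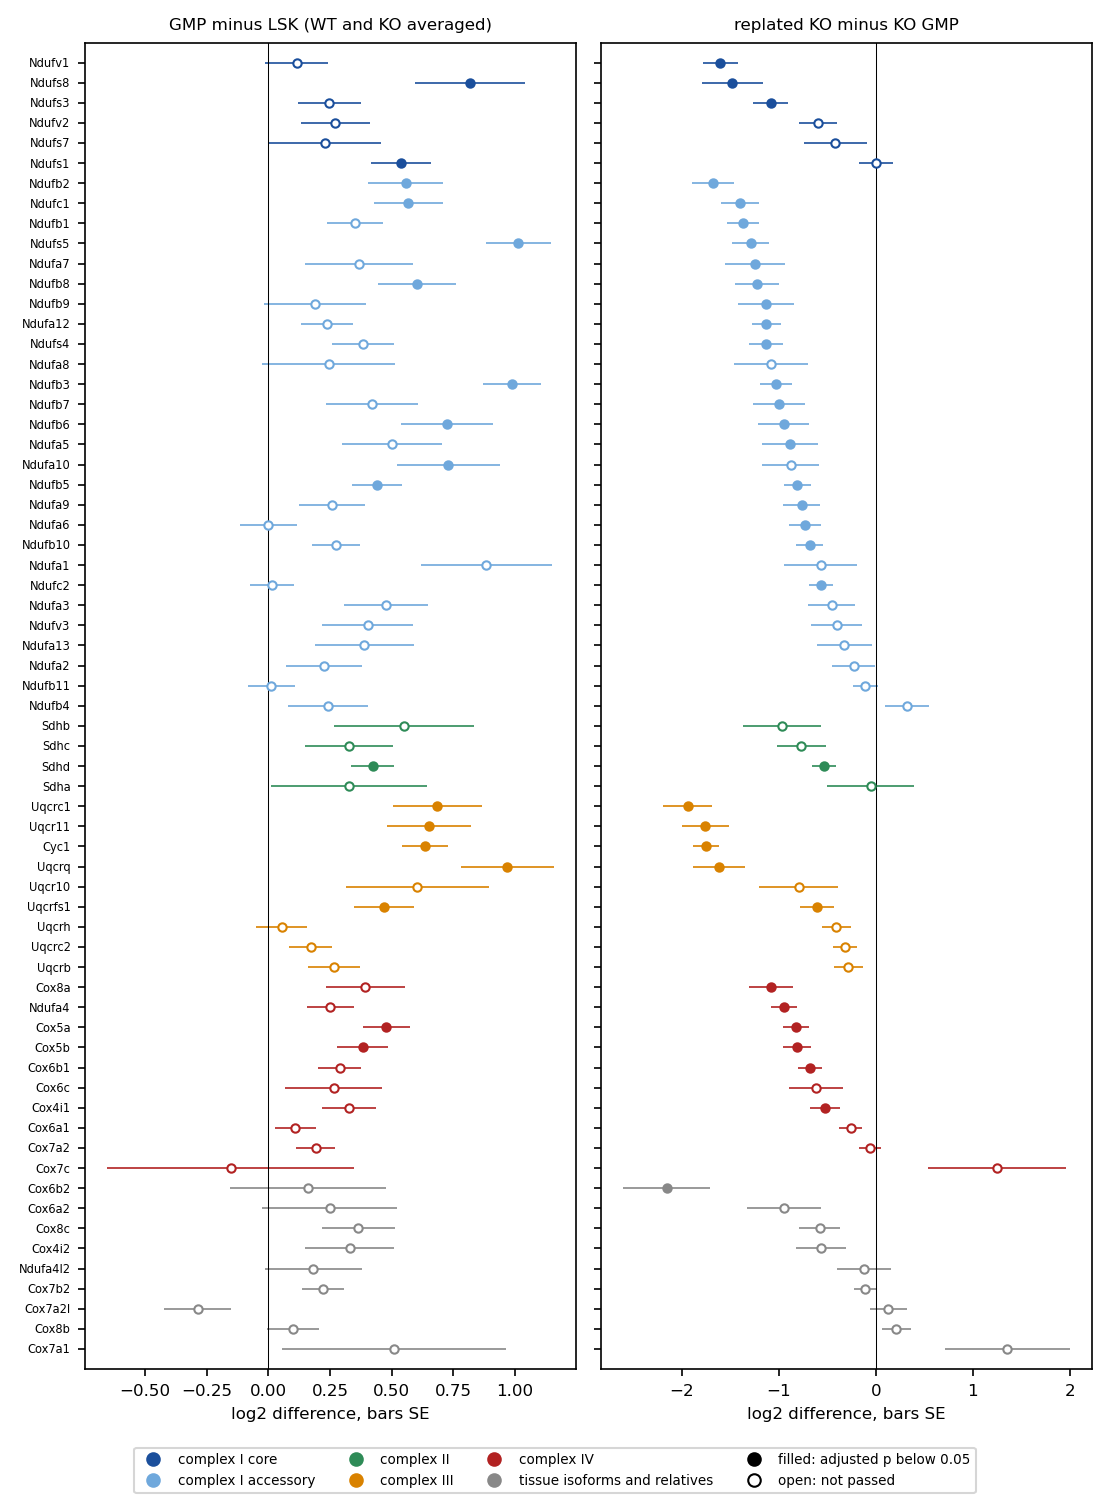
Log2 differences (x axis) of all 65 subunits with bars of 1 SE, by class, for GMP minus LSK averaged over genotypes and for replated KO minus KO GMP; filled points passed an adjusted p of 0.05. In the left panel 18 points pass and all of these lie above 0; in the right panel 34 pass and all of these lie below 0, with Uqcrc1, Cyc1, Uqcr11 and Cox6b2 among the farthest.

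Where a passing gene had further probe sets, most of them moved with it. For GMP against LSK, 11 of the genes that passed had 23 other probe sets, of which 4 lay below the floor. At an unadjusted p below 0.05, reached by 28.6% of all genes, 15 moved the same way and 0 the other way. The remaining 4 had a larger unadjusted p. For replated cells against KO GMP, 20 genes had 44, of which 6 lay below the floor. At an unadjusted p below 0.05, reached by 34.1% of all genes, 32 moved the same way and 2 the other way. The remaining 4 had a larger unadjusted p. Across the arrays the log2 ratio of the 3' to the 5' control probe sets was 0.99 to 1.23 for actin, and for Gapdh 0.58 to 0.69 in the sorted and 0.72 to 0.81 in the replated arrays. The part of this difference in the falls was not tested. Across the 60 subunits above the floor on all arrays, mean log2 intensity went with the size of the difference. The Spearman correlation was 0.43, 0.41 and 0.14 for replated cells against KO GMP, CMP and LSK, so brighter subunits tended to fall less. It was -0.38 for GMP minus LSK, where brighter subunits tended to rise less. The part of brightness in the order of the subunits was not tested.

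Genes that work beside the chain were counted in the same fit, where 8% of all genes rose and 7.17% fell from LSK to GMP, and 10.2% rose and 15.2% fell from KO GMP to replated cells. From LSK to GMP, 2 of 16 ATP synthase genes rose and 0 fell, and in replated cells against KO GMP 0 rose and 11 fell, among them Atp5g1, of the membrane ring, by 2.07 ± 0.22. Of 14 genes of cytochrome c and ubiquinone synthesis, 3 rose and 1 fell from LSK to GMP, and 2 rose and 7 fell in replated cells. Cycs, cytochrome c itself, rose by 1.02 ± 0.13 and then fell by 1.13 ± 0.18. Of 40 assembly factors, 8 rose and 1 fell, and then 2 rose and 15 fell, among the latter Ndufaf4 by 1.30 ± 0.16. In LSK, where 0.264% of all genes passed between genotypes, Ndufaf3 was the only gene of that list to pass. This assembly factor of complex I differed by -1.37 ± 0.22 in KO minus WT (limma, adjusted p = 0.0495), and by -1.80 without both low LSK arrays. Between genotypes averaged over the sorted populations, 0 genes of these 3 lists passed in limma with all 14 arrays, where 0.308% of all genes did. Without both low LSK arrays the median KO minus WT difference was -0.01 for ATP synthase, 0.08 for cytochrome c and ubiquinone synthesis and -0.04 for assembly factors. There Ndufaf3 differed by -0.58 in the average, and the calls among the assembly factors depended on these arrays. From LSK to GMP the medians of these 3 lists were 0.27, 0.24 and 0.38 in the same order, against 0.07 for all genes. Without both low LSK arrays they were 0.18, 0.17 and 0.11, against 0.06 for all genes, and the counts of these lists from LSK to GMP changed too.

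The mitochondrial ribosome makes the subunits encoded in mitochondrial DNA. Of 45 genes of its large subunit, 12 rose and 0 fell from LSK to GMP (median 0.44), and 0 rose and 33 fell in replated cells (median -1.08). In the citric acid cycle 6 of 16 rose and 0 fell, and then 0 rose and 9 fell, where Idh3a fell by 1.88 ± 0.13. Glycolysis was mixed. Of 18 genes, 7 rose and 4 fell from LSK to GMP, and 4 rose and 7 fell in replated cells, where the glucose transporter Slc2a1 rose by 1.79 ± 0.12 and the pyruvate dehydrogenase kinase Pdk1 fell by 3.53 ± 0.13. Of 13 regulators of mitochondrial biogenesis, 0 rose and 2 fell from LSK to GMP, the GABP subunit Gabpb1 by 0.72 ± 0.09 and the mitochondrial DNA factor Tfam by 0.53 ± 0.13. In replated cells 3 fell and 0 rose, Myc by 1.60 ± 0.20, Gabpa by 0.62 ± 0.17 and Gabpb1 by 0.61 ± 0.13. Of 19 cell cycle genes, 4 rose and 0 fell from LSK to GMP, and 0 rose and 14 fell in replated cells (median -0.95), so lower cell cycle genes moved with the lower chain there, and their part in it was not tested. From LSK to GMP the medians were 0.44 for the mitochondrial ribosome, 0.51 for the citric acid cycle, 0.26 for glycolysis, -0.12 for the regulators and 0.16 for the cell cycle. Without both low LSK arrays they were 0.25, 0.28, 0.18, 0.11 and 0.11 in the same order, against 0.06 for all genes. The median of the regulators thus changed sign, and the counts of these lists from LSK to GMP depended on the same arrays.

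**Figure D5:**
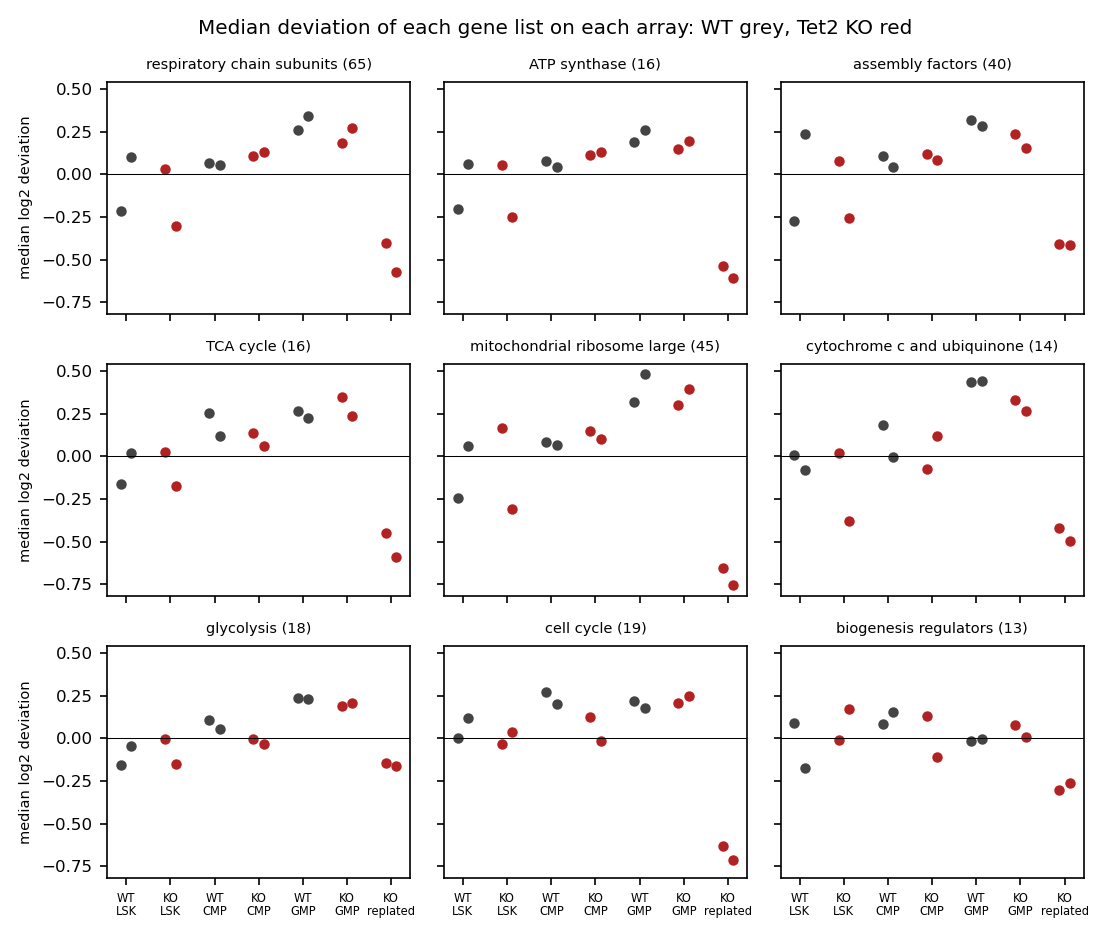
Median over each gene list (panel titles give the number of genes) of the log2 intensity minus the gene's mean over 14 arrays (y axis), for each array (x axis, by group; WT grey, KO red). The chain, ATP synthase, assembly factors, citric acid cycle and mitochondrial ribosome are lowest in the 2 replated arrays and have their highest group means in GMP; replicate 1 of WT LSK and replicate 2 of KO LSK are low in the same lists.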

How the data were processed

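Gene expression was measured on Affymetrix mouse 3' expression arrays, 14 in 7 groups of 2, from amplified and biotin-labelled RNA, per the labels' protocols. The authors deposited intensities on a linear scale from RMA, per the submitters' processing notes, the software and its version being not given in the sources used here. The deposited intensity of each probe set was turned to log2 with no offset and not normalized again. Probe sets were named from the platform annotation, giving 34958 with 1 gene and 932 with several of 45101; each gene was read by its brightest single-gene probe set, 18194 in all. The groups were fitted together with limma 3.58.1 in R 4.3.3 (with data.table, version 1.17.8), with empirical Bayes variances (7 residual and 2.19 prior degrees of freedom), 95% intervals from them and Benjamini-Hochberg adjustment over all genes. Group means are means of log2 values turned back. The fit was tested on simulated data, and figures were drawn in Python 3.11.15 with matplotlib 3.10.9.

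No label gives separate animals or cultures for the 2 arrays of a group, so p-values measure only the spread between these samples. The number of arrays limits the precision. No scan date or slide was used, so no batch was tested. The floor, the highest of 27 bacterial control probe sets on an array, was chosen after the data were seen. The genes, the companion and marker lists and the tests were chosen with earlier results of these data known. Named were up to 10 risen and 10 fallen subunits with the largest passing difference, up to 4 with the smallest p where none passed, the complex I core, complex II, Uqcrc1, Uqcrc2, Uqcrfs1, Cyc1, Cox4i1, Cox5a, Cox5b, isoforms and relatives, X-linked subunits and those below the floor; other genes were named after their values were seen. The closing section gives the alternatives tried, among them centring, quantile normalization, an offset of 16, other probe set choices, array weights and the omission of each array.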

Additional observations from a re-analysis of the deposited data

Results flagged for a closer look

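Several probe sets of the chain were kept out of the comparisons because the annotation gives them more than 1 gene, and they carried signal above the bacterial controls. The mean intensity over 14 arrays was 2530 for the probe set of Ndufs5 and its pseudogene Ndufs5-ps, 2750 and 1280 for those of Ndufb4, Ndufb4b and Ndufb4c, 1710 for that of Ndufa11 and Ndufa11b, 1110 for that of Ndufs6 and Ndufs6b, and 39.5 for that of Ndufa13 and Yjefn3. The single-gene probe set of Ndufb4 lay below the floor on all arrays, so its signal comes from the shared ones alone. From LSK to GMP the first 5 differed by 0.80, 0.36, 0.42, 0.65 and 0.72 on the log2 scale, and from KO GMP to replated cells by -1.18, -0.19, -0.19, -0.84 and -1.40. These were not tested. ND5, a complex I subunit encoded in mitochondrial DNA and outside the naming rule, had a mean intensity of 3990.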

How the results depend on the processing

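The counts of passing subunits were recomputed under array centring, quantile normalization, an offset of 16, low genes left out, the mean of all probe sets, _x_at and _s_at probe sets left out, array weights, a replicate block, only the groups compared, each array left out and, chosen after seeing the data, replicate 1 of WT LSK and replicate 2 of KO LSK left out together. KO minus WT stayed at 0 subunits in the average, CMP, GMP and the difference between populations under all of them, and in LSK ranged from 0 to 1 over single omissions. Leaving out single arrays gave 0 to 3 for CMP minus LSK, 0 to 2 for GMP minus CMP, 7 to 26 for GMP minus LSK, and 10 to 25, 17 to 35 and 23 to 39 for replated cells against KO LSK, CMP and GMP. The share of all genes passing was not set beside these single omissions. A loss of calls particular to the subunits can therefore not be told apart from a loss over all genes. An offset of 16 gave 1 subunit for CMP minus LSK, Ndufs5, where 4.4% of all genes passed in either direction. Fitting only the groups compared gave 1 for GMP minus CMP, 5 for GMP minus LSK and 9 for replated minus KO LSK, with fewer samples in each fit. In those fits 2.35%, 9.36% and 19.5% of all genes passed in either direction, in the same order. Without both low LSK arrays GMP minus LSK gave 4 and replated minus KO LSK gave 29. Over all of these the median of the 65 genes lay between -0.23 and 0.12 for KO minus WT in LSK, 0.05 and 0.27 for CMP minus LSK, 0.18 and 0.45 for GMP minus LSK, and -0.47 and -0.18, -0.69 and -0.49, and -0.85 and -0.61 for replated cells against KO LSK, CMP and GMP. With the replicate block GMP minus CMP gave 1 (2.47% of all genes), GMP minus LSK 17 (14.5%), and the replated comparisons 17, 31 and 33 (24.4%, 23.9% and 24.8%). The same number did not pair samples: the correlations of the deviations of same-numbered arrays over 21 pairs of groups lay between -0.10 and 0.10. Of the values of named genes, 1383 kept their direction and side of the threshold, 122 lost it, 4 gained it and 1 reversed. Uqcrq in replated cells against KO CMP went to 0.11 (adjusted p = 0.711) without _x_at and _s_at probe sets, which leaves a probe set at or below the floor. Probe sets near the floor, Cox7c, Cox7a1 and Cox8b among them, limit what can be said of those genes.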

Other observations

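The differences of ND5 had the opposite sign to the medians of the nuclear subunits, without passing. It read 5380 and 3865 in WT LSK and 4668 and 4909 in KO LSK, 3776 and 3898 in WT CMP and 3248 and 3800 in KO CMP, and 4067 and 2247 in WT GMP and 4096 and 3108 in KO GMP. The replated arrays read 4524 and 5661. GMP differed from LSK by -0.51 ± 0.20 on the log2 scale (limma, adjusted p = 0.129), and replated cells from KO GMP by 0.50 ± 0.28 (adjusted p = 0.263). Neither passed, and the differences from the nuclear subunits were not tested.

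Among the genes that work beside the chain, Nubpl, an iron-sulfur assembly factor of complex I, fell by 2.53 from KO GMP to replated cells, and Ndufaf4 had risen by 0.81 from LSK to GMP. Hk3, a hexokinase of myeloid cells, rose by 2.06 from LSK to GMP while Aldoc, an aldolase, fell by 3.10, and Hk3 fell by 3.20 from KO GMP to replated cells. These comparisons share the KO GMP arrays.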
